A study of Homo sapiens with 8 samples.

Results

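Chromatin carrying the histone variant macroH2A1 was described at 8 genes that encode liver identity transcription factors: HNF4A, NR5A2, FOXA1, FOXA2, FOXA3, CEBPA, CEBPB and PROX1. The genes were chosen by name, with earlier results of these data known, as 8 of the 20037 annotated protein-coding genes. All 8 were found in the RefSeq annotation of GRCh38.p14, the assembly also called hg38. For each gene the annotated span (the gene body) and 50 kb on each side of it were examined, and the 3 together are called the window. HepG2 cells, a human hepatoblastoma line, were harvested 3 days after transfection with either a control siRNA (siControl) or one that targets the histone chaperone ANP32B (siANP32B), with 1 siRNA sequence per group. CUT&RUN, in which an antibody guides a nuclease to its target and the released DNA is sequenced, was then done with anti-macroH2A1 in 2 libraries per group, and the 4 IgG libraries of the series were not used here. The authors deposited a list of broad enriched domains for each of the 4 anti-macroH2A1 libraries and a table of regions compared between siANP32B and siControl, with which the series asks whether ANP32B affects the entry of macroH2A into chromatin.

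Hepatocyte identity is kept by a small network of transcription factors that bind each other's genes. HNF4A and NR5A2 are nuclear receptors, the first a central activator of liver genes and the second a regulator of bile acid and cholesterol metabolism. FOXA1, FOXA2 and FOXA3 are forkhead factors, often called pioneer factors because they can bind closed chromatin. CEBPA and CEBPB are bZIP factors of metabolic and acute phase genes, and PROX1 is a homeobox factor of hepatoblasts and hepatocytes that restrains bile acid synthesis. The variant macroH2A1 replaces H2A in some nucleosomes and carries a bulky macro domain. It is usually found over broad stretches of weakly transcribed chromatin, although it also lies on some active genes.

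The sequences upstream of the start sites are shown because the domains treated these starts differently: some starts lay inside a domain in every library, some in none, and the start of CEBPA lay in a break between domains in 2 libraries. RefSeq promoter sequences (GRCh38.p14) matched 6 of the 8 genes, all but FOXA2 and PROX1, with 9 start sites. The 250 bases before 6 of these starts read, 5′ to 3′ on the strand of the gene, with matches to the searched motifs in capitals:
HNF4A upstream start, chr20:44355449-44355698, plus strand: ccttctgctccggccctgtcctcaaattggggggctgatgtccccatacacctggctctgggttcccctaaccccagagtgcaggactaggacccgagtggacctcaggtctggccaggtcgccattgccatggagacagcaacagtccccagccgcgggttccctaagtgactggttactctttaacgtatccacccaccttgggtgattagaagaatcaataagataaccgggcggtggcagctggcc
HNF4A downstream start, chr20:44400989-44401238, plus strand: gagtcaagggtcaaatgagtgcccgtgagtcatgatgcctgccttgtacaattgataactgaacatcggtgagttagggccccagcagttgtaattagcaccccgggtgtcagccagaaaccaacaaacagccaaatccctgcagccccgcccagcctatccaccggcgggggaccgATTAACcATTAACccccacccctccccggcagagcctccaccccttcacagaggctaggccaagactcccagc
NR5A2 upstream start, chr1:200027460-200027709, plus strand: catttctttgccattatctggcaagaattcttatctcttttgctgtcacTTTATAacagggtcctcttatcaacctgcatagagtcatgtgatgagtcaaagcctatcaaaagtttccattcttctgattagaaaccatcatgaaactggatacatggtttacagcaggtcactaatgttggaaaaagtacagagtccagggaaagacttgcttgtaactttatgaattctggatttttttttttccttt
FOXA1, chr14:37595250-37595499, minus strand: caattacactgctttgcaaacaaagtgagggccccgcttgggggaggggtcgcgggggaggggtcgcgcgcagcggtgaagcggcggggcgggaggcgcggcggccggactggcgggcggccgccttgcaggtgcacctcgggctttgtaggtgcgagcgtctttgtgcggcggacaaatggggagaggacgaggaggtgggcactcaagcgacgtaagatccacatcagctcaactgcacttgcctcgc
CEBPA, chr19:33302535-33302784, minus strand: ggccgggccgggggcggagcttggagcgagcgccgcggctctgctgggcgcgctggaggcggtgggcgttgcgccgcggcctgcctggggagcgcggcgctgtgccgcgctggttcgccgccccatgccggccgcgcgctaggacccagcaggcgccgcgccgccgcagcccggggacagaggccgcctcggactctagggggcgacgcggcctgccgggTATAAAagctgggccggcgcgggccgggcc
CEBPB upstream start, chr20:50190333-50190582, plus strand: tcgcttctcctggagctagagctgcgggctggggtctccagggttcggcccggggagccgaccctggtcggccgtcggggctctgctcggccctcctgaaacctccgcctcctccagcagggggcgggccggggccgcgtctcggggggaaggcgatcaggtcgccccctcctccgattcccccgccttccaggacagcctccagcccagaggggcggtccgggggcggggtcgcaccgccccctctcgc

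The start sites fell into 3 kinds by domain. The upstream HNF4A start and both CEBPB starts (50190583 and 50190830) lay in a domain in all 4 libraries, which was so for 14.7% of 35116 RefSeq start sites. The FOXA1 and FOXA3 starts lay in a domain in none of them, as did 57.8% of all starts. Between these, the downstream HNF4A start and both NR5A2 starts (200027710 and 200042591) lay in a domain in 3 libraries, and the CEBPA start in 2, siControl replicate 1 and siANP32B replicate 2. Of all 35116 starts, 2661 lay in a domain in 3 libraries and 2985 in 2.

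CpG-rich sequence was found both inside and outside domains. The 250 bases before the CEBPB upstream start held 25 CpG dinucleotides and those before the FOXA1 start 26, although the first lay in domains in every library and the second in none. The CEBPA sequence was the richest printed, with 41 CpG and 81.2% G and C, and the NR5A2 upstream sequence had no CpG and 36% G and C. The median over all promoters was 11 CpG, with 11 over starts in no domain and 6 over starts in domains of all 4 libraries.

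Short motifs of the factors themselves were searched on both strands of the same 250 bases, and no matches overlapped. The 6 motifs were TGTTTAC for FOXA factors (in 2.98% of all promoters), CAAAGTCC for HNF4A (1.02%), TTGCNNAA for C/EBP (9.05%), CAAGGNCA for NR5A2 (4.51%), GTTAAT for part of an HNF1 site (6.23%) and TATAAA for a TATA box (10.7%). The downstream HNF4A start held GTTAAT at 2 places on the opposite strand, 73 to 68 and 66 to 61 bases before the start. TATAAA lay 30 to 25 bases before the CEBPA and FOXA3 starts and 29 to 24 bases before the downstream CEBPB start, and the fourth match was on the opposite strand, 201 to 196 bases before the upstream NR5A2 start. The downstream NR5A2 start held 1 match each of the FOXA, HNF4A and HNF1 motifs, and the C/EBP and NR5A2 motifs were in none of the 9 sequences. A match describes letters only and does not show binding.

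Across the 4 libraries the 8 genes ranged from complete inclusion in domains to none. Coverage is the percentage of 1 kb bins that lie in a domain. At least 50% of the gene body was covered in both siControl libraries at HNF4A, FOXA2 and CEBPB, which is 3 of 8 genes, against 13.8% of all protein-coding genes. These 3 genes are all on chromosome 20. Without siControl replicate 2 the count was 5, as CEBPA and NR5A2 passed in replicate 1 alone. FOXA1 and FOXA3 gene bodies had no domain in any library. Windows fell into 2 sets: those of HNF4A, FOXA2, CEBPA and CEBPB were covered by 81.7% or more in every library, and those of FOXA1, FOXA3, NR5A2 and PROX1 by 59.1% or less. The medians over the 8 genes, which lie between these sets, were 68.5% and 61.1% in siControl cells and 75.2% and 71.7% after siANP32B, beside 19.5% and 13.9% in siControl cells and 21.5% and 17.9% after siANP32B for all protein-coding genes.

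**Figure D1:**
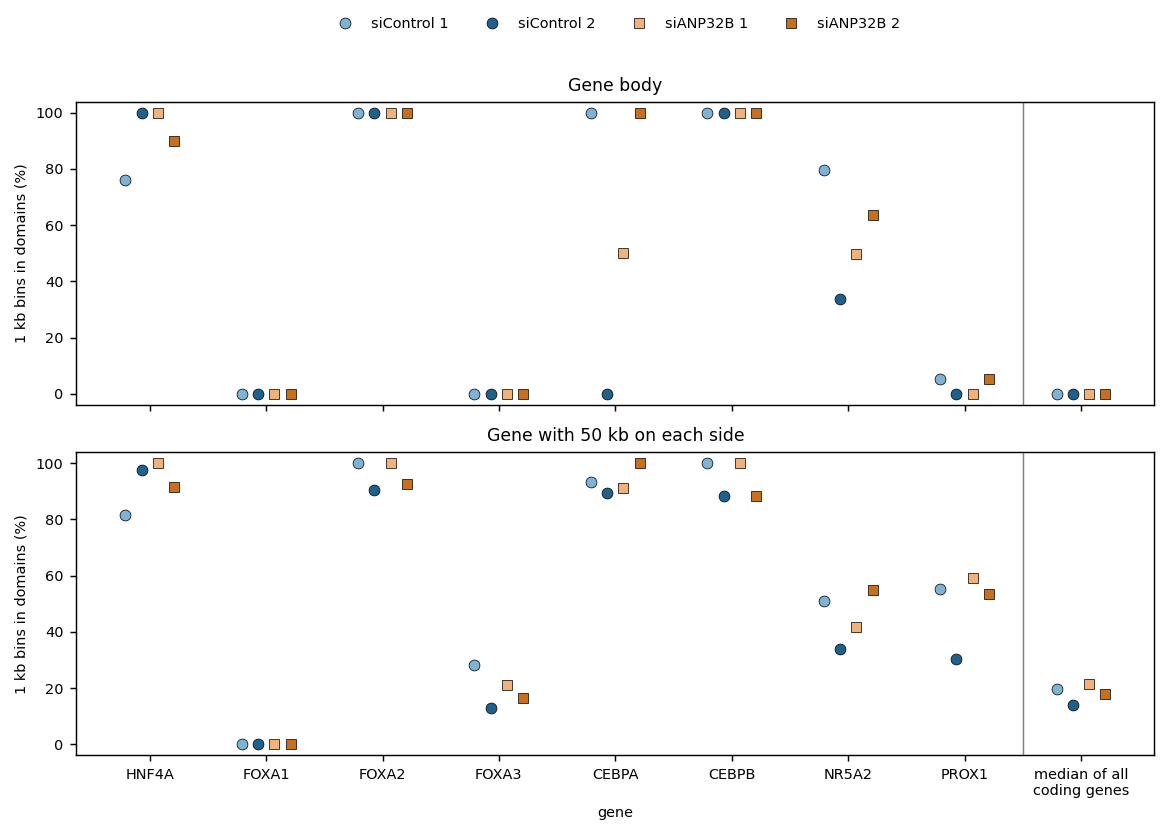
Percentage of 1 kb bins in macroH2A1 domains (vertical axis) for each of the 8 genes and for the median of all protein-coding genes, over the gene body (top) and over the gene with 50 kb on each side (bottom); circles are siControl and squares siANP32B libraries, 1 point per library. FOXA2 and CEBPB gene bodies lie at 100%, HNF4A at 76.3% or more and FOXA1 at 0%, and the 2 groups overlap or tie in every window.

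The siRNA groups did not separate in any of the 8 windows. No window had both siANP32B libraries above both siControl libraries, against 18.7% of all protein-coding gene windows, and none had both below, against 7.05%. For each gene the differences in gene body, each flank, both flanks and window were compared by a two-sided exact permutation test, 40 comparisons in all. The smallest exact p was 0.333, the lowest that 2 libraries against 2 can give, and all p-values were 1 after Benjamini-Hochberg adjustment. With so few libraries a missed threshold does not show that the groups were alike. Nothing in the labels ties the replicates to separate cultures, and their spread may be technical.

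**Figure D2:**
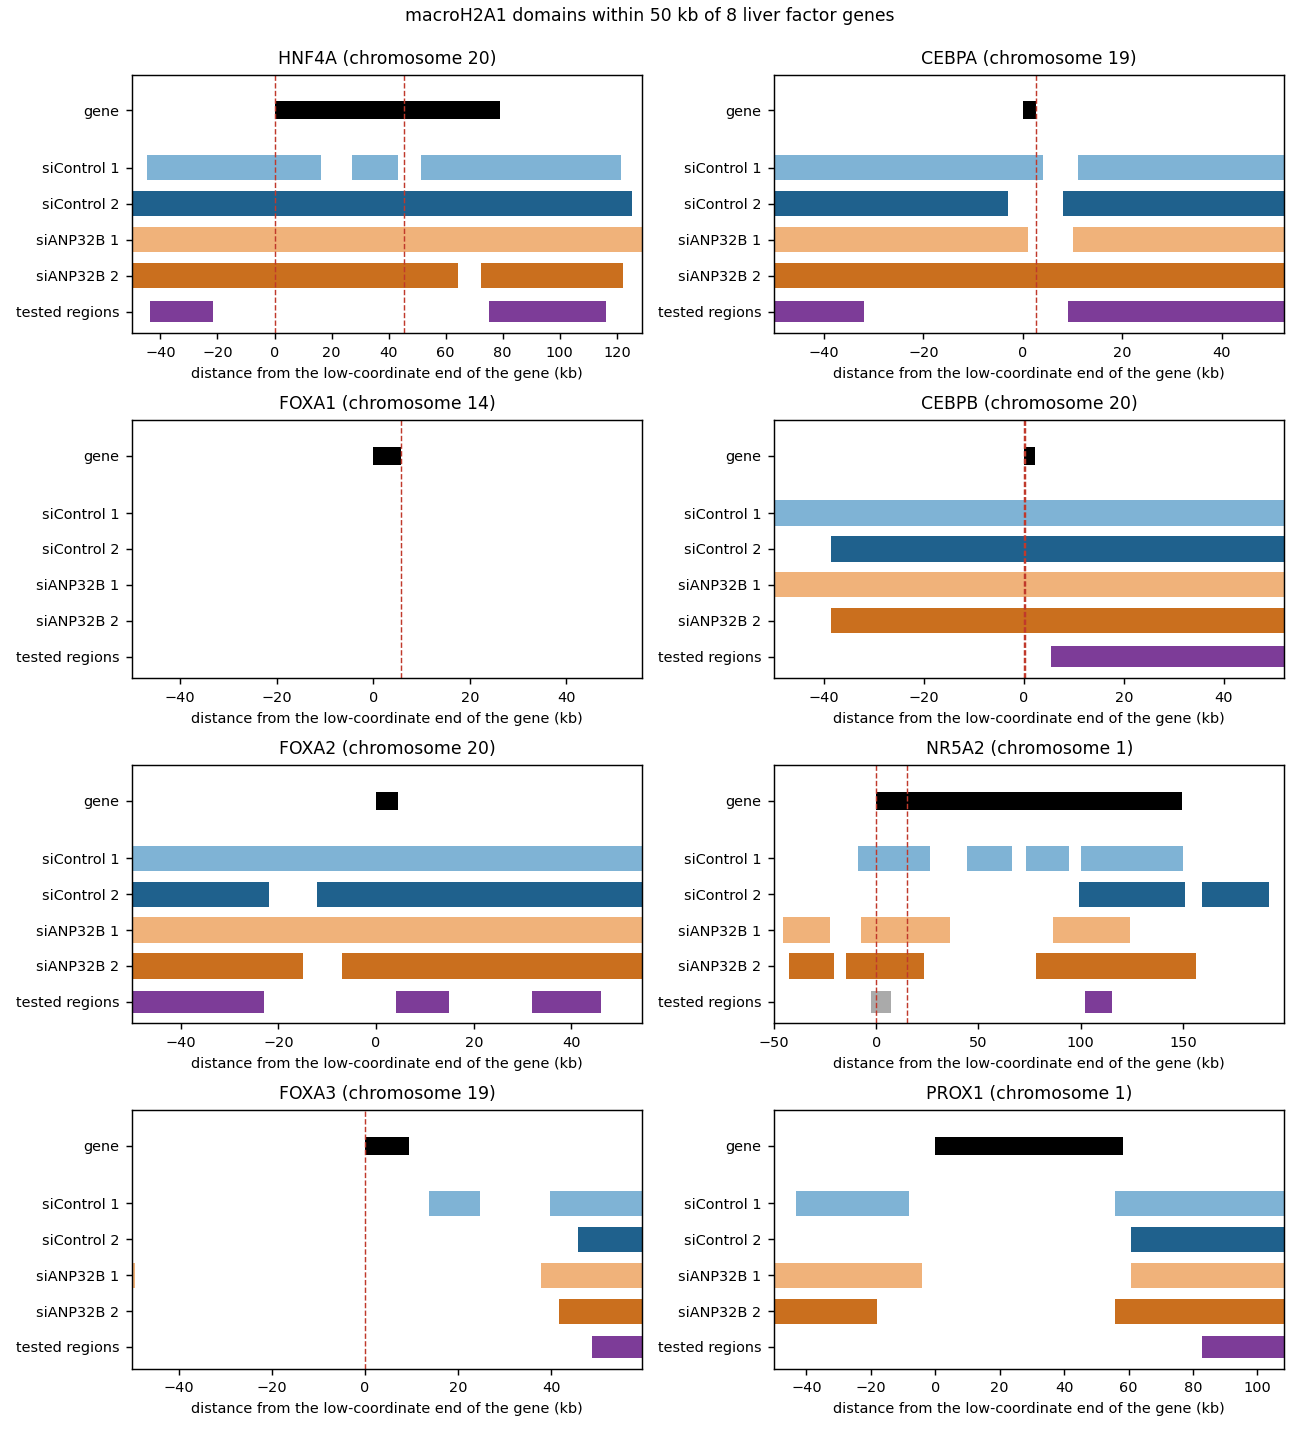
Domains in each library (coloured bars), tested regions (purple, lower after siANP32B at a false discovery rate of 0.05; grey, not passed) and the gene body (black) against distance in kb from the low-coordinate end of each gene; dashed red lines are RefSeq start sites, which are drawn for 6 genes. Domains run through FOXA2 and CEBPB, flank PROX1 and are absent around FOXA1. At CEBPA they break over or beside the gene in every library but siANP32B replicate 2.

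HNF4A (GeneID 3172, chr20:44355699-44434596) lay almost wholly in domains, but the domains of the libraries differed in extent and strength. The gene body was covered by 76.3% and 100% in siControl cells and by 100% and 90% after siANP32B, means of 88.1% ± 16.8 and 95% ± 7.07 (SD, n = 2 each). The groups overlap. In siControl replicate 1 there were 3 domains of 61, 16 and 70 kb over the gene, with breaks of 11 and 8 kb, and the downstream start lay in the second break (44399001 to 44407000). The other libraries had a single domain across both starts, of 411 kb in siControl replicate 2, 410 kb in siANP32B replicate 1 and 217 kb in siANP32B replicate 2.

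The long domains over HNF4A in siANP32B cells carried some of the lowest caller scores of their lists. The score is the authors' own value per domain and ranks domains only within a list: it was at the 2.91 percentile in siANP32B replicate 1 and at the 0.419 percentile in replicate 2, against the 20.6 percentile for the long domain of siControl replicate 2. When only domains with a score at or above the 25th percentile of all lists were kept, gene body coverage was 56.3% and 100% in siControl cells and 0% and 8.75% after siANP32B. This changed the HNF4A gene body difference from 6.88 to -73.8 points. When instead the same number of best-scored domains, 7404, was kept in each library, the difference was 16.9 points. That number is the whole list of siANP32B replicate 2, against 7530 domains in siANP32B replicate 1 and 8623 and 8116 in siControl cells. This setting thus took domains mainly from the siControl lists. It could not remove the low-scored domain of siANP32B replicate 2, so its sign is no counterpart to that of the score limit. The median scores of the whole lists were 88.9 and 97.7 in siControl cells and 70.1 and 67.5 after siANP32B, so a common limit removes more siANP32B domains. The part of this shift in the HNF4A result was not tested.

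2 tested regions lay in the HNF4A window, and both were lower after siANP32B in the authors' deposited table, which gives for each region a false discovery rate (FDR, passed at 0.05) and the log2 fold of a representative window. Negative folds are read as lower after siANP32B, from the domain lists as described with the counts over all 12 regions. The first, chr20:44312001-44334000, lies 21.7 kb before the gene and had a log2 fold of -0.94 (FDR 1.04e-06) in the authors' deposited table, with all 12 of its windows down. The second, chr20:44431001-44472000, shares 3.60 of its 41 kb with the end of HNF4A and had -0.88 (FDR 2.09e-05) in the authors' deposited table, with all 29 windows down. Both regions were 100% in domains in all 4 libraries. The second also covers the long non-coding genes LINC01430 and LINC01620, which, like the other non-coding genes below, are named after their values were seen.

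NR5A2 (GeneID 2494, chr1:200027710-200177415) carried a patchwork that changed from library to library. Gene body coverage was 79.5% and 33.8% in siControl cells and 49.7% and 63.6% after siANP32B, with the same mean in both groups, 56.6% ± 32.3 against 56.6% ± 9.83 (SD, n = 2 each). The 2 siControl libraries were the highest and the lowest of the 4. With the score limit given for HNF4A, coverage in siANP32B replicate 1 was 24.5% and the difference in means was -12.6 points. Domains over both start sites were called in siControl replicate 1 and in both siANP32B libraries, and not in siControl replicate 2. In siANP32B cells a stretch of 50 kb (replicate 1) and 55 kb (replicate 2) inside the gene lay between domains. In this stretch siControl replicate 1 had a domain of 22 kb and part of a domain of 21 kb (200101001 to 200122000). The latter ran past the end of the stretch, at 200114000 in siANP32B replicate 1 and 200106000 in replicate 2. siControl replicate 2 had no domain there either, as its only domain over the gene, of 52 kb, began at 200127001.

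The 50 kb upstream of NR5A2 was the only gene body or single flank of the 8 genes in which the groups did not overlap, with both siANP32B libraries above both siControl libraries. Among all protein-coding genes this order was found for 10.5% of single flanks and 8.91% of gene bodies, and the opposite order for 4.52% and 2.88%, so 1 of 24 parts at the 8 genes is not above these shares. The NR5A2 flank was covered by 16% and 0% in siControl cells and by 60% and 72% after siANP32B, 8% ± 11.3 against 66% ± 8.49 (SD, n = 2 each), a difference of 58 points (exact permutation p = 0.333, adjusted 1). Both siANP32B libraries had a further domain there, of 23 kb (199982001 to 200005000) and 22 kb (199985001 to 200007000), that neither siControl library had. The domain of siANP32B replicate 1 had a score of 39.8, at the 13.5 percentile of its list and under the score limit given for HNF4A. Over both flanks of NR5A2 the difference was 15 points, 3.5 points with that limit and 4.75 points with 100 kb flanks. On the other side of the gene coverage was 0% and 68% against 0% and 12%, so the groups overlap.

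Of the 2 tested regions at NR5A2, 1 passed. A 10 kb region over the upstream start, chr1:200025001-200035000, had a log2 fold of -0.33 and did not pass (FDR 0.174) in the authors' deposited table. It was 100% in domains in 3 libraries and 0% in siControl replicate 2. A 13 kb region wholly inside the gene, chr1:200130001-200143000, was lower with -0.48 (FDR 0.0144) in the authors' deposited table, and it was in domains in all 4 libraries.

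The 3 FOXA genes differed sharply from each other. FOXA2 (GeneID 3170, chr20:22580998-22585490) lay inside a domain in all 4 libraries, with 100% of the gene body covered in each. The domain over it measured 706 kb in siControl replicate 1, the fourth longest of 8623, 193 kb in siControl replicate 2, 742 kb in siANP32B replicate 1, rank 17 of 7530, and 367 kb in siANP32B replicate 2. The replicates numbered 2 had a break of 10 kb (siControl) and 8 kb (siANP32B) on the low-coordinate side of FOXA2. The first overlaps the low-coordinate end of the neighbouring long non-coding gene LINC00261 (from 22560553) and the second lies inside it, and LINC00261 was covered by 100% and 52.6% in siControl cells and by 100% and 57.9% after siANP32B. Window coverage was 100% and 90.6% against 100% and 92.5%, so the replicates differed more than the groups. The domain over FOXA2 in siANP32B replicate 2 had a low score (1.07 percentile of its list), and without domains under the score limit given for HNF4A the gene body was at 0% in that library.

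3 tested regions lay in the FOXA2 window and all were lower after siANP32B. The largest fall, in the authors' deposited table, was a log2 fold of -0.81 (FDR 9.61e-06) at chr20:22613001-22627000, 27.5 kb from the gene. An 11 kb region that shares 0.49 kb with the high-coordinate end of FOXA2 and much of the non-coding gene LNCNEF had -0.62 (FDR 0.00107), and a 33 kb region on the other side of LINC00261 had -0.62 (FDR 0.00293) in the authors' deposited table. All 3 were 100% in domains in each library.

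FOXA1 (GeneID 3169, chr14:37589552-37595249) was free of domains. Gene body and both flanks were at 0% in all 4 libraries, as were 23.8% of all protein-coding gene windows. The nearest domain on the low-coordinate side lay 1279 and 678 kb away in siControl cells and 13629 and 239 kb away after siANP32B, and on the other side between 5940 and 6143 kb away. The nearest tested region was 1280 kb from the start site and did not pass. FOXA1 thus gives no fold in the authors' deposited table, and its neighbours MIPOL1 and TTC6 were also without a domain, apart from 43.3% of MIPOL1 in siANP32B replicate 2.

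FOXA3 (GeneID 3171, chr19:45864326-45873797) was likewise at 0% over its gene body, but domains lay nearby. The low-coordinate flank, which holds SYMPK, a scaffold of mRNA 3′ end formation, was covered by 0% and 0% in siControl cells and 2% and 0% after siANP32B. The other flank was covered by 62% and 28% in siControl cells and 44% and 36% after siANP32B, 45% ± 24.0 against 40% ± 5.66 (SD, n = 2 each). A small domain of 11 kb, 4.20 kb beyond the gene, was present in siControl replicate 1 alone, over IRF2BP1. At the far end a region over NANOS2 (chr19:45913001-45931000), which encodes an RNA-binding protein of germ cells, had a log2 fold of -0.48 (FDR 0.0452) in the authors' deposited table, with 3 of 9 windows down.

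CEBPA (GeneID 1050, chr19:33299934-33302534) sat at a break between 2 well-scored domains whose outer edges were steady. On the low-coordinate side the domain began between 33210001 and 33212001 in all 4 libraries, and on the other side it ended at 33374000 in 3 libraries and at 33378000 in siANP32B replicate 2. The break between the domains was 7 kb in siControl replicate 1, 11 kb in siControl replicate 2 and 9 kb in siANP32B replicate 1, and was closed in siANP32B replicate 2. Because the gene is only 2.60 kb long, small shifts of this break moved its coverage over the whole scale: 100% and 0% in siControl, 50% and 100% in siANP32B libraries. Window coverage was steady at 93.3% and 89.4% against 91.3% and 100%, and the flank coverage at 93% and 93% against 93% and 100%.

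Both domains around CEBPA held a region that was lower after siANP32B. The region 31.9 kb from the end of CEBPA, chr19:33236001-33268000, had the largest fall of the 12 regions in the 8 windows, a log2 fold of -0.96 (FDR 2.50e-06) with all 23 windows down in the authors' deposited table. On the upstream side, 6.47 kb from the start, a 53 kb region had -0.57 (FDR 0.0217) in the authors' deposited table, where 12 of 33 windows were down.

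CEBPB (GeneID 1051, chr20:50190583-50192690) lay deep inside a long, well-scored domain in every library. The gene body was at 100% in all 4. Domain lengths were 405 and 360 kb in siControl cells and 647 and 367 kb after siANP32B, and the scores stood between the 88.4 and 95.2 percentiles of their lists. The high-coordinate edge was at 50518000 and 50512000 in siControl cells and at 50518000 and 50519000 after siANP32B, and the other edge was at 50152001 in both replicates numbered 2. Beginning 3.31 kb beyond CEBPB, a region of 109 kb (chr20:50196001-50305000) was lower with a log2 fold of -0.83 (FDR 1.54e-05) and 75 of 87 windows down in the authors' deposited table. It runs over the long non-coding genes PELATON and LINC01270 and, like the gene, was 100% in domains in all 4 libraries.

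PROX1 (GeneID 5629, chr1:213983151-214041510) was flanked, not covered. The gene body was at 5.08% and 0% in siControl cells and 0% and 5.08% after siANP32B. The domain on the high-coordinate side began at 214039001 in siControl replicate 1 and siANP32B replicate 2, inside the high-coordinate end of the gene, and at 214044001 in the other two, 2.49 kb beyond it. On the low-coordinate side a domain ended 8.15 kb before the gene in siControl replicate 1 and 4.15 and 18.2 kb before it in the siANP32B libraries, and in siControl replicate 2 the nearest domain, 57.2 kb away, lay outside the 50 kb flank. That flank was covered by 70% and 0% against 92% and 64%, so the groups overlap. The stretch without a domain between them was 64 kb in siControl replicate 1 and 65 and 74 kb in siANP32B libraries, and it held nearly the whole gene. The tested region of the window, chr1:214066001-214098000 within the non-coding gene LINC02775, was lower with a log2 fold of -0.60 (FDR 0.0154) in the authors' deposited table.

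In all, 11 of the 12 tested regions in the 8 windows were lower after siANP32B and none was higher. Among all 4474 regions of the authors' deposited table, 58.4% were lower and 3.82% higher, and on chromosomes 1, 19 and 20, where the 12 regions lie, the shares were 57.9%, 69.3% and 65.7%. At a false discovery rate of 0.01 the count was 7 of 12, at HNF4A, FOXA2, CEBPA and CEBPB, beside 42.5% of all regions. The median log2 fold of the 12 was -0.62, and that of all regions in the authors' deposited table was -0.54, so 9 of the 12 lay below the general median and 3 above it. The middle 50% of all folds in the authors' deposited table ran from -0.74 to -0.29, and how the libraries were scaled is not stated in the sources used here. The 12 regions were built from 243 windows, of which 189 were down and 0 were up in the authors' deposited table. Over all its regions, 31828 of 60658 windows were down and 2134 were up.

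**Figure D3:**
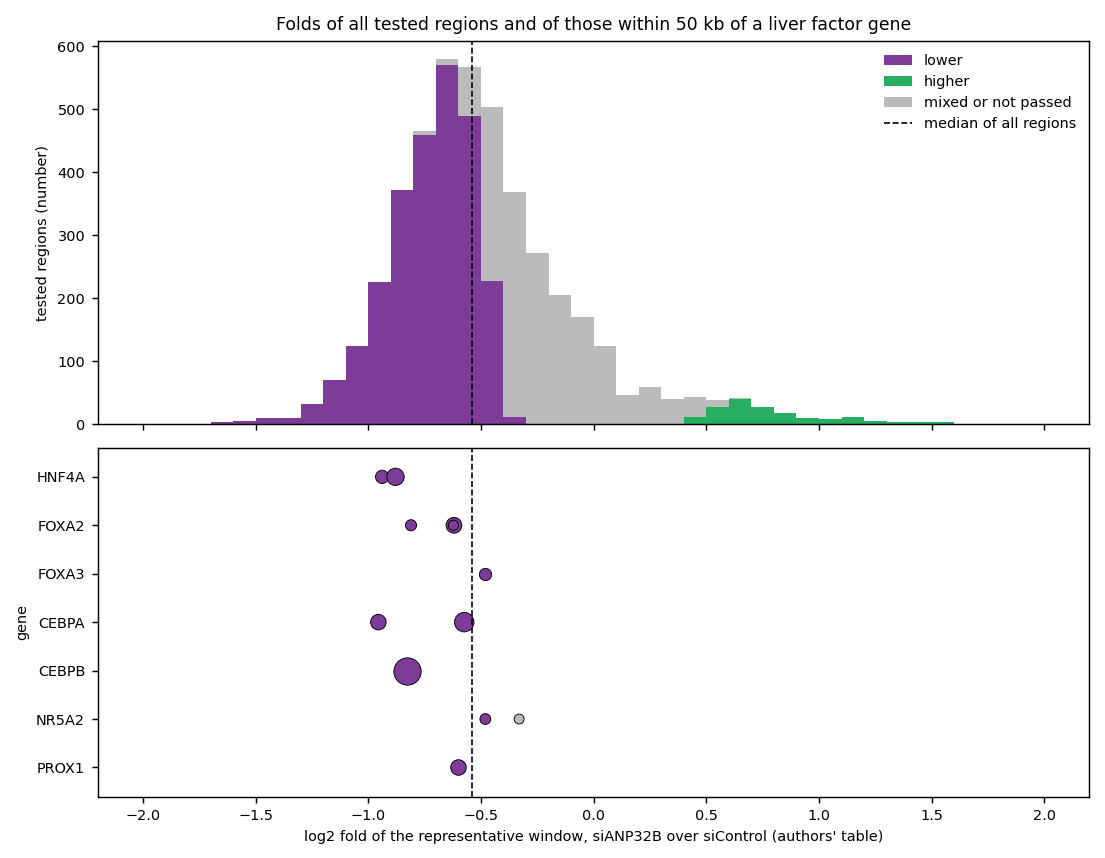
Top, number of tested regions by log2 fold of the authors' deposited table, coloured by call; bottom, the 12 regions within 50 kb of a liver factor gene, 1 row per gene, with point area growing with region width and the same colours. The dashed line is the median of all regions at -0.54; 9 of the 12 points lie to its left, and none lies above 0.

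Genes with a lower region were spread over all but FOXA1. A lower region lay in the window of 7 of 8 genes, against 19.4% of all protein-coding gene windows, and it touched the gene body of 3 (HNF4A, FOXA2 and NR5A2), against 5.61% of all gene bodies. Among windows with any tested region the shares were 7 of 7 and 64.5%. All 11 lower regions were at least 50% covered in all 4 libraries. With all domains kept, their lower folds thus came without loss of domain calls. At HNF4A, FOXA2 and NR5A2 this rested partly on siANP32B domains under the score limit given for HNF4A. In replicate 1 these lay over both HNF4A regions (2.91 percentile) and the lower NR5A2 region (24.9 percentile). In replicate 2 they lay over the first HNF4A region (0.419 percentile) and the FOXA2 regions from 22585001 and 22613001 (1.07 percentile). Coverage of at least 50% was common among all lower regions, with the shares per library given at the end of this paragraph. The remaining region of the 12, over the upstream NR5A2 start, did not pass and was 0% covered in siControl replicate 2. The authors' deposited table does not state the order of the groups in its folds, and it was read from the domain lists. There, regions called higher were at least 50% covered in 88.3% and 80.7% of cases in siControl cells and in 99.4% of cases in both libraries after siANP32B, and regions called lower in 96.7% and 95.3% against 91.7% and 93.0%.

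Domain coverage also differs between chromosomes and with the number of coding genes in a window, and the part of either in the members' values was not tested. Domains took up 33.4% and 34.7% of the annotated span of chromosome 20 in siControl cells and 44.7% and 36.8% after siANP32B, and the median domain there measured 111 and 108 kb against 317 and 203 kb. On chromosome 19, which holds both FOXA3 and CEBPA, the share was 26.8% and 23% in siControl cells and 28.9% and 26.5% after siANP32B. On chromosome 14, where FOXA1 had no domain, the share was 15.7% and 14.5% in siControl cells and 14.2% and 16.5% after siANP32B. FOXA2, CEBPA, NR5A2 and PROX1 are each the only protein-coding gene of their windows. Of these 4 windows, those of FOXA2 and CEBPA were covered by 89.4% or more in every library, and those of NR5A2 and PROX1 by 30.2% to 59.1%. The windows of HNF4A and CEBPB, with 4 coding genes each, were covered by 81.7% or more, that of FOXA3, with 6, by 12.7% to 28.2%, and that of FOXA1, with 3, by 0%. The medians for all windows with 1 coding gene were 5.56% and 3.91% in siControl cells and 3.78% and 7.58% after siANP32B. For all windows with 2 or more coding genes the medians lay between 12.1% and 25.5%.

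A list of 26 other transcription factors of the liver network was described in the same way. Of these, 2 had at least 50% of the gene body covered in both siControl libraries, KLF15 and CREB3L3, against 13.8% of all genes, and the median window coverage was 39.5% and 29.1% in siControl cells and 43.0% and 38.8% after siANP32B. A lower region lay in the window of 13 of the 26 and in the gene body of 2, MLXIPL and KLF15, and a higher one in none. Over all protein-coding genes the shares were 19.4% of windows and 5.61% of gene bodies with a lower region and 1.23% of windows with a higher one. Among windows with any tested region, 13 of 18 had a lower one, against 64.5%. MLXIPL, the carbohydrate-responsive factor ChREBP, overlapped a region with a log2 fold of -1.20 (FDR 4.03e-09), and KLF15, a factor of gluconeogenesis and amino acid breakdown, one with -0.61 (FDR 0.0120) in the authors' deposited table.

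Among these, CREB3L3, a membrane-bound factor of the fasting response, was the only gene whose body was lower in both siANP32B libraries than in both siControl libraries, and 4 (KLF15, GATA4, ATF5 and DBP) were higher in both. The shares over all protein-coding genes were 2.88% and 8.91%. The CREB3L3 gene body was covered by 100% in both siControl libraries and by 9.52% and 4.76% in siANP32B libraries. NR0B2, the small heterodimer partner of NR5A2, was covered by 100% in siControl replicate 1 and by 0% in the other three libraries, so the siControl libraries disagreed. KLF15 was covered by 62.9% and 72.9% in siControl cells and by 80% in both siANP32B libraries. CREB3L3, KLF15 and NR0B2 were named by their siControl coverage, and a siControl value of 100% can only stay or fall after siANP32B. None of these differences was tested.

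**Figure D4:**
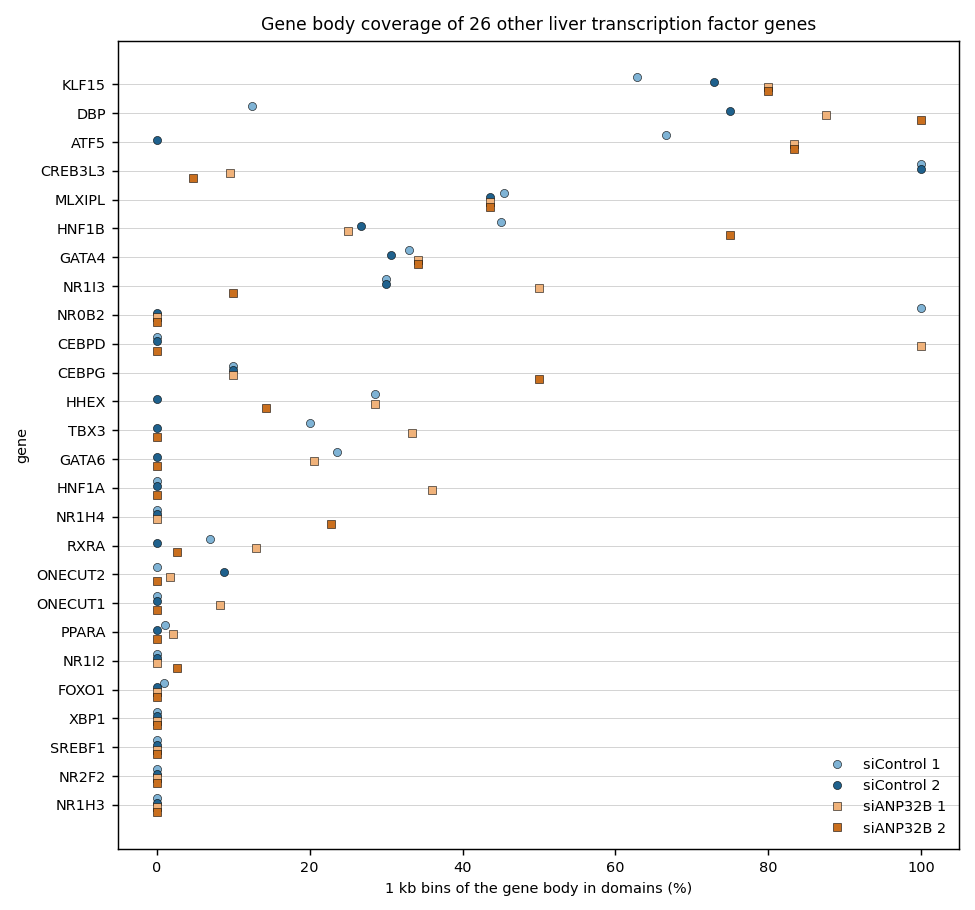
Percentage of 1 kb bins of the gene body in domains for 26 other liver transcription factor genes, ordered by their mean over the 4 libraries; circles are siControl and squares siANP32B libraries. CREB3L3, named by its siControl coverage, lies at 100% in siControl cells and below 10% after siANP32B. The medians over the 26 genes are 8.48% and 0% in siControl cells and 11.5% and 1.30% after siANP32B.

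The window pattern of each gene over the 4 libraries was compared with those of the 26 factors by the mean absolute difference in coverage. The nearest to HNF4A, FOXA2 and CEBPA was DBP (9.91, 12.5 and 10.2 points), to CEBPB it was KLF15 (11.8 points), to NR5A2 CEBPG (6.66 points), to PROX1 ONECUT1 (9.13 points) and to FOXA3 XBP1 (3.02 points). SREBF1 shared the complete lack of domains with FOXA1 (0 points). The match of PROX1 and ONECUT1 includes the low value in siControl replicate 2, where ONECUT1 had 14.7% against 61.8% to 64.7% in the other three libraries. With 4 libraries such likeness is a description only.

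Among 30 hepatocyte genes, many of which these factors are known to drive, 14 were at least 50% covered in both siControl libraries and 12 in both siANP32B libraries, against 13.8% and 17.3% of all genes. A lower region lay in the window of 10 of 30, against 19.4%, and a higher one in that of 1, CYP2E1, against 1.23%. Of windows with a tested region, 10 of 22 had a lower one, against 64.5%. APOA1, APOC3, FGA and FGB were among the genes at 100% in both siControl libraries. They were named by that coverage, so their values could only stay or fall after siANP32B. In siANP32B replicate 2 APOA1 was at 0% and APOC3 at 40%, while FGA and FGB stayed at 100%. The gene bodies of 6 of 30 had no domain in any library, against 46.9% of all genes. A lower region lay in the gene body of 4 of 30, against 5.61%: ABCB11, the bile salt export pump, at -1.49 (FDR 5.54e-16), CYP3A4 at -0.71 (FDR 0.000662), TF at -0.64 (FDR 0.0181) and APOB at -0.50 (FDR 0.0195) in the authors' deposited table. Domain coverage is not a measure of expression, which was not analysed here, and it gives no check of the cell type. Marker genes of other liver cell types were also covered in both siControl libraries, 4 of 8 for cholangiocytes, 6 of 10 for stellate and endothelial cells and 2 of 8 for blood cells, against 13.8% of all genes.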

How the data were processed

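The submitters' processing notes name build hg38 and, with no version or role, edgeR, SICER, deepTools, SAMtools, Bowtie2 and Trim Galore. The authors deposited domain lists per anti-macroH2A1 library, with a score per domain, and a table of 4474 regions with, per the file headers, a p-value, a false discovery rate, the fold of a representative window (read as log2, the convention of edgeR) and other whole-number columns, which count windows. The table holds no values per library, so no count test was made here; 0 of its columns hold values per sample, and the depth of the libraries is unknown. Recomputing the Benjamini-Hochberg adjustment over all regions returned the deposited false discovery rates (largest difference 1.11e-15).

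Domains were placed on a 1 kb grid. Coverage code and the exact permutation test were tested on simulated data. RefSeq gene spans served for 20037 protein-coding genes on chromosomes 1 to 22, X and Y; the promoter table gave strand and start sites. Regions at a false discovery rate of at most 0.05 were called lower or higher by the deposited direction. The members and the gene lists were chosen with earlier results of these data known. Beyond the 8 members, the text names coding genes of tested regions in the windows, the 26-factor genes nearest to each member, and for each list up to 4 genes by smallest p-value in a called region and up to 4 by siControl coverage; CREB3L3 and NR0B2 came by coverage, and any others were named after their values were seen. Alternatives were base pairs, score, number and length of domains, flank size, overlap, false discovery rate and leaving out libraries. Python 3.11.15, pandas 2.3.3 and scipy 1.17.1 were used.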

Additional observations from a re-analysis of the deposited data

How the results depend on the processing

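Of 24 coverage differences (8 genes, 3 parts), 10 were 0 and 14 were not; over 150 alternative values of these 14, 23 turned in sign. Keeping only domains with a score at or above the 25th percentile gave siANP32B minus siControl differences of -73.8 (gene body), -69.5 (flanks) and -71.4 points (window) at HNF4A, -27 (flanks) and -28.3 points (window) at FOXA2 and -6.18 points (window) at NR5A2; gene bodies of FOXA2 and NR5A2, at 0 with all domains, gave -50 and -12.6 points, and NR5A2 flanks 3.5 instead of 15. Keeping equal numbers of best-scored domains, which leaves the list of siANP32B replicate 2 whole, gave 16.9 points for the HNF4A gene body. At FOXA3, flanks and window gave 7 and 6.67 points with 100 kb flanks and 3.5 and 3.18 points with domains of at least 20 kb. With 100 kb flanks the PROX1 groups did not overlap (16.5 points for flanks, 12.7 for the window, exact permutation p = 0.333), and NR5A2 flanks gave 4.75 points. The cause was not tested.

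Leaving out each library in turn gave -5 to 18.8 points for the HNF4A gene body, -1.94 to 14.2 for its window, -4 to 6 and -3.77 to 5.66 for FOXA2 flanks and window, -10.5 to 6.5 and -9.55 to 5.91 for FOXA3 flanks and window, -25 to 75 for the CEBPA gene body and -2.59 to 14.5 for the NR5A2 window. With no turn in sign, the ranges were 2 to 28 for NR5A2 flanks, 3 to 40 and 0.943 to 26.1 for PROX1 flanks and window (lowest without siControl replicate 2), 0.5 to 10.5 for HNF4A flanks and 0 to 7 and 0 to 8.65 for CEBPA flanks and window; all of these moved by over 1.5 times. The sign turned without siControl replicate 1 (HNF4A, FOXA3), siControl replicate 2 (FOXA2, CEBPA, NR5A2), siANP32B replicate 1 (FOXA2) and siANP32B replicate 2 (FOXA3, NR5A2). The NR5A2 gene body, at 0 with all libraries, ranged from -22.8 to 22.8. The count of genes covered in both siControl libraries, 3, ranged from 3 to 5. Lower regions numbered 7 at a false discovery rate of 0.01 and 3 of 4 tested when only gene bodies counted, 8 of 9 with 25 kb and 15 of 16 with 100 kb flanks.

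With the replicate number as a replicate block, the PROX1 window difference was 13.5 points (3.77 and 23.3 within the pairs) and that of NR5A2 flanks 15 points, each with an exact sign-flip p of 0.5, the smallest 2 pairs allow; no call changed. Same-numbered libraries deviated together weakly over genes (r = 0.14), and the labels give only a shared number. Depth is unknown, so no limit on missed domains can be given.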

Other observations

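Factors of other lineages gave a mixed picture. Of 26 such genes, 6 had at least 50% of the gene body covered in both siControl libraries, against 13.8% of all protein-coding genes, among them CDX2, SPI1, TAL1 and SOX9, the intestinal, myeloid, blood stem cell and biliary factors, at 100% in all 4 libraries. The median window coverage was 23.4% and 25.6% in siControl cells and 26.8% and 38.0% after siANP32B. A lower region lay in the gene body of 4, against 5.61% of all gene bodies, and in the window of 8, against 19.4%. Of windows with a tested region, 8 of 9 had a lower one, against 64.5%, beside 7 of 7 at the liver identity genes. In the authors' deposited table PAX5 had a log2 fold of -0.61 (FDR 0.00143) and RUNX1 -0.65 (FDR 0.00385), and CDX2 and PDX1 share 1 region with -0.63 (FDR 0.0104).

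Markers of other liver cells with a lower region in the gene body were KRT7 (-0.82, FDR 0.000186), PECAM1 (-0.84, FDR 3.04e-05), COL1A1 (-0.54, FDR 0.00460), COL1A2 (-0.55, FDR 0.0102) and CD3E (-0.55, FDR 0.0464) in the authors' deposited table. These were 1 of 8 cholangiocyte, 3 of 10 stellate and endothelial and 1 of 8 blood cell markers, against 5.61% of all gene bodies. Of windows with a tested region, 3 of 5, 5 of 6 and 1 of 2 had a lower one, against 64.5%. KRT7, KRT19, COL1A1, DES, PECAM1, CDH5 and CD3E were at 100% in all 4 libraries. Gene bodies without a domain in any library numbered 2 of 8, 2 of 10 and 2 of 8 in the same lists, against 46.9% of all genes. Among them were SLC4A2, ACTA2 and PTPRC. EPCAM was covered by 100% and 57.9% in siControl cells and 100% in both libraries after siANP32B, and ITGAM by 86.5% and 82.4% against 100% in both.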
